A study of Mus musculus with 25 samples.

Results

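The mevalonate pathway enzymes up to lanosterol were followed as 9 genes, *Hmgcs1*, *Mvk*, *Pmvk*, *Mvd*, *Idi1*, *Fdps*, *Fdft1*, *Sqle* and *Lss*, of the 23116 genes in the deposited expression table. All 9 were found by symbol and all 9 passed the filter on low values, a mean of at least 0.1 FPKM (fragments per kilobase of gene length, scaled to the total of the library). The 9 genes were chosen from measured values of the same comparison that is described here, so that their differences between genotypes are given as a description, without a test. RNA-seq was performed on HSLAM cells, hematopoietic stem cells sorted from mouse bone marrow as LSK+ CD150+ CD48-. The libraries came from adult C57BL/6 mice, 3 of them *Znf143 f/f* without Cre and 3 *Znf143 f/f* with Rosa26ERT2-Cre, called *Znf143 -/-* below. The animals of both genotypes were male littermates and received the middle dosage of tamoxifen, which activates the Cre protein and lets it remove the loxP-flanked exon 1 of *Znf143*. Rosa26 is active in most tissues, so the deletion was not restricted to blood cells. Because only the *Znf143 -/-* mice carried Cre, effects of active Cre and of the loss of ZNF143 cannot be told apart.

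The mevalonate pathway builds sterols and isoprenoids from acetyl-CoA in the cytosol and the endoplasmic reticulum. HMGCS1 condenses acetoacetyl-CoA with acetyl-CoA to HMG-CoA, which is reduced to mevalonate. MVK and PMVK phosphorylate mevalonate in turn, MVD decarboxylates the product to isopentenyl diphosphate, and IDI1 interconverts this with dimethylallyl diphosphate. FDPS joins these units to farnesyl diphosphate, the branch point from which dolichol, ubiquinone and the prenyl groups of membrane-bound proteins are also made. FDFT1, the squalene synthase, commits farnesyl diphosphate to sterols, SQLE oxidizes squalene, and LSS closes the rings to form lanosterol. The genes of the pathway are known to be transcribed under the control of SREBP2, encoded by *Srebf2*, which acts at sterol response elements together with NF-Y and Sp1 when membrane sterol is low.

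As SREBP2, NF-Y and Sp1 act at the promoter, the promoters are shown first, from 250 bases before to 50 bases after the start of the RefSeq transcript on GRCm38.p6, written 5′ to 3′ along the strand of the gene. Entries of 6 of the 9 genes were matched by symbol, and those of *Fdps*, *Fdft1* and *Sqle* were not. Capitals mark the NF-Y box CCAAT, which reads ATTGG where it lies on the other strand, and the sterol response element core TCACNCCAC. *Hmgcs1* is chr13:119690101-119690400 on the plus strand, *Mvk* chr5:114444019-114444318 on the plus strand, *Pmvk* chr3:89454291-89454590 on the plus strand, *Mvd* chr8:122443373-122443672 on the minus strand, *Idi1* chr13:8885356-8885655 on the plus strand and *Lss* chr10:76531355-76531654 on the plus strand.
Hmgcs1: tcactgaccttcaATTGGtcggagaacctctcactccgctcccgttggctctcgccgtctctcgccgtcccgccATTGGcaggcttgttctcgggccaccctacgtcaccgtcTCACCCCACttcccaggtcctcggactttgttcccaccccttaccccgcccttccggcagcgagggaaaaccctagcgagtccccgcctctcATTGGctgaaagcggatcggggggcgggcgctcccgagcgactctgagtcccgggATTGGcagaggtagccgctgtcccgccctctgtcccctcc
Mvk: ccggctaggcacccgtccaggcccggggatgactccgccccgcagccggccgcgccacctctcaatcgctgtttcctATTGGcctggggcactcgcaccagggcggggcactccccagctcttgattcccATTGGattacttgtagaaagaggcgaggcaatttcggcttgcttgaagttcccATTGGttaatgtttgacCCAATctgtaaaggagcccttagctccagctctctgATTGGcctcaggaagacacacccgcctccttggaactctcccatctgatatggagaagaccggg
Pmvk: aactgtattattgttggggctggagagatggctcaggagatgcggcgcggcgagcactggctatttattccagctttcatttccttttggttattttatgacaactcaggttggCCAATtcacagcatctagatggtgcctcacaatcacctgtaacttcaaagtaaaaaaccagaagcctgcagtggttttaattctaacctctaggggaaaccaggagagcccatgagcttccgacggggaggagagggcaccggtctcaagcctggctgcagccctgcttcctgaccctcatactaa
Mvd: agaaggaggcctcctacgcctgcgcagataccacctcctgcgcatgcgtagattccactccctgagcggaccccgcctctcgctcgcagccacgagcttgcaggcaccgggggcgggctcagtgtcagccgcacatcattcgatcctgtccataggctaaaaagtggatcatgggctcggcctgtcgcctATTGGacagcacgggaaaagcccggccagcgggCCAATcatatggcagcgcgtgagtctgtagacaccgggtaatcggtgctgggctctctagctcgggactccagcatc
Idi1: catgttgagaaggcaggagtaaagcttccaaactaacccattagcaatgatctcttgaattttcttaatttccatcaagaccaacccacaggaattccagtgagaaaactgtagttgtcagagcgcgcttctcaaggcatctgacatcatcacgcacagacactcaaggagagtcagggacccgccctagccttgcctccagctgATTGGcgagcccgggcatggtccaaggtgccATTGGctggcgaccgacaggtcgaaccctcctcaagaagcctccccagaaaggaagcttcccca
Lss: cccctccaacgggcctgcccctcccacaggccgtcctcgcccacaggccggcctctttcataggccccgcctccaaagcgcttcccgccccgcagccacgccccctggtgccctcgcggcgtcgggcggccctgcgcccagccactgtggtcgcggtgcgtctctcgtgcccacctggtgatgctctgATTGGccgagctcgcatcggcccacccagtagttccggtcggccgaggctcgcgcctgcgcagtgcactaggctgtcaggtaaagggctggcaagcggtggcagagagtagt
The core TCACNCCAC stood in the *Hmgcs1* promoter alone, as TCACCCCAC from 137 to 129 bases before the start, and in 1.24% of all 32851 RefSeq promoters of this length. CCAAT was found in all 6 promoters printed, with 5 copies in *Mvk*, 4 in *Hmgcs1*, 2 each in *Mvd* and *Idi1* and 1 each in *Pmvk* and *Lss*, whereas 37.4% of all promoters held it. The Sp1 box GGGCGG was found in *Hmgcs1*, *Mvk*, *Mvd*, *Idi1* and *Lss*, and in 35.7% of all promoters. A RefSeq entry for another start of *Pmvk*, chr3:89459321-89459620, held none of these letters. The core of the ZNF143 binding site, CCCAGNATG, and the E-box CACGTG were in none of the 7 entries, and in 2.04% and 7.15% of all promoters. Both strands were searched, and the motifs did not overlap each other. A match is a run of letters and was not tested as a binding site.

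**Figure D1:**
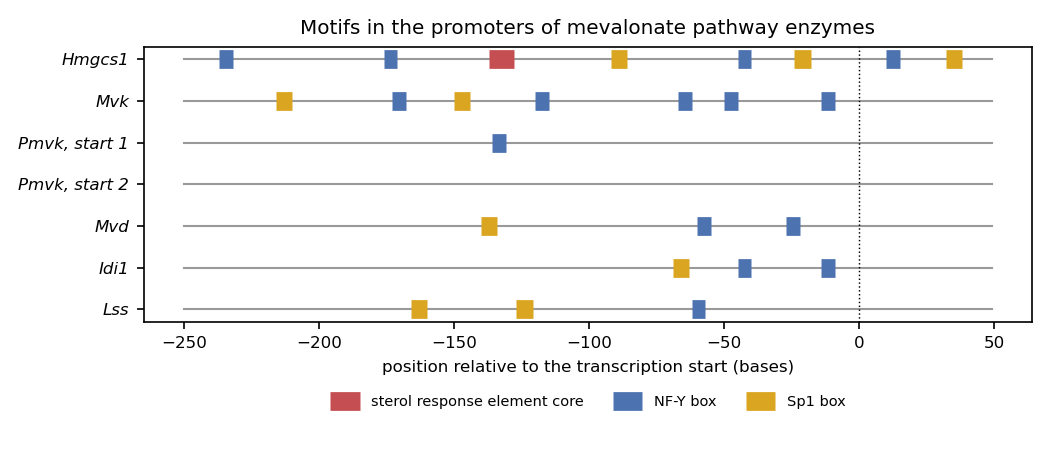
Positions of the sterol response element core, the NF-Y box and the Sp1 box (coloured blocks) in the 7 RefSeq promoter entries of 6 mevalonate pathway enzymes. The x axis gives bases from the transcription start (dotted line). The NF-Y box stands in each gene and the sterol response element core in *Hmgcs1* alone.

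The 6 libraries held between 38643255 and 57895793 fragments on genes, and the 9 enzymes between 235 and 4439 fragments each per library. The third *Znf143 -/-* library had been divided by 48378188, the divisor of the second, although 57895793 fragments lay on its genes. Size factors, the medians of ratios to a mean library, were therefore applied to all FPKM below, and values as deposited are given where they differ in outcome. Libraries 1 and 3 of *Znf143 f/f* differed from each other little, with a median squared difference of 3.48 times the counting error over genes with at least 200 fragments, and libraries 2 and 3 of *Znf143 -/-* with 3.95 times, whereas the 13 other pairs lay between 35.4 and 71.8 times. Whether each library came from a mouse of its own was not tested, and p-values below measure the spread between these libraries. Results are also given with each of these pairs averaged to 1 library.

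The targeted gene, listed as *Zfp143*, had 3.09, 4.45 and 3.68 FPKM in *Znf143 f/f* and 0.156, 0.299 and 0.272 FPKM in *Znf143 -/-* libraries (log2 difference -3.50 ± 0.24 (SE), limma, adjusted p = 0.00100). In the labels the deletion is named as one of CTCF, but *Ctcf* had 31.2 ± 1.34 FPKM in *Znf143 f/f* and 28.6 ± 2.87 FPKM in *Znf143 -/-* (SD, n = 3 each, limma, adjusted p = 0.468). Stem cell markers *Kit*, *Ly6a*, *Slamf1*, *Procr*, *Mecom*, *Hlf* and *Fgd5* were all detected, at summed levels of 347 to 409 FPKM in *Znf143 f/f* and 648 to 705 FPKM in *Znf143 -/-* libraries. The difference lay in *Ly6a*, without which the other 6 markers summed to 106.9 to 119.3 and 95.3 to 99.8 FPKM. By limma, *Ly6a* was higher in *Znf143 -/-* at an adjusted p of 0.00453 (0.00120 to 0.144 over the alternatives) and *Mecom* lower at 0.0208 (0.0130 to 0.408). *Mecom* did not pass with FPKM as deposited, and neither gene passed with the libraries that differ little averaged. *Cd48*, which the sort excludes, summed to 9.61 to 11.1 and 19.7 to 20.5 FPKM. Of 6 neutrophil and monocyte markers tested, 4 were higher in *Znf143 -/-* at an adjusted p under 0.05, beside 5.98% of all genes tested in either direction. With the libraries that differ little averaged, none of these markers passed by limma. There, 4 of the 6 had an unadjusted p under 0.05, beside 1911 of all 19293 genes tested. Levels of the 6 markers summed to 21.8 to 43.0 FPKM in *Znf143 f/f* and 78.0 to 92.8 FPKM in *Znf143 -/-*. Lymphoid markers summed to 0.677 to 1.06 and 7.40 to 8.42 FPKM, nearly all of the latter from *Dntt*, while *Il7r* was listed at 0 in each *Znf143 f/f* library. Erythroid markers summed to 54.8 to 226 and 49.1 to 53.2 FPKM, the highest value in library 2 of *Znf143 f/f*, megakaryocyte markers to 537 to 619 and 666 to 1009 FPKM, and stroma and endothelium markers to 2.30 to 3.66 and 3.61 to 4.83 FPKM. The part of these markers in the levels of the 9 enzymes was not tested.

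The mevalonate pathway enzymes were all lower on average in *Znf143 -/-* than in *Znf143 f/f* HSLAM cells. Their mean levels in *Znf143 -/-* were between 62.0% (*Sqle*) and 84.9% (*Idi1*) of the *Znf143 f/f* mean. The log2 difference had a median of -0.52 over the 9 genes, with a range of -0.69 to -0.26, beside a median of 0.01 over all 19293 genes tested, of which the middle part from the 25th to the 75th percentile reached from -0.25 to 0.26. All *Znf143 -/-* libraries lay below all *Znf143 f/f* libraries for 6 of the 9 genes, *Hmgcs1*, *Pmvk*, *Mvd*, *Fdps*, *Fdft1* and *Sqle*, a pattern that 15.3% of all genes tested showed. Since the enzymes were chosen on this comparison, nothing is read from this count, and no test of them is given. In bulk samples, fewer cells of a type and less RNA per cell cannot be told apart.

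*Hmgcs1* (chromosome 13, 119690379 to 119708260, plus strand, GRCm38), at the entry of the pathway and with the sterol response element core shown above, had 8.23, 6.94 and 7.61 FPKM in *Znf143 f/f* libraries 1, 2 and 3 and 4.32, 5.24 and 5.23 FPKM in *Znf143 -/-* libraries 1, 2 and 3. The genotypes did not overlap, and library 1 of *Znf143 -/-* was the lowest of all. The means were 7.60 ± 0.646 and 4.93 ± 0.529 FPKM (SD, n = 3 each), a log2 difference of -0.62 ± 0.12 (SE).

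The kinases came next in the pathway and were the only enzymes with library 1 as the highest of the *Znf143 -/-* libraries. *Mvk* (chromosome 5, 114444269 to 114460591, plus strand), the mevalonate kinase, had 7.28, 9.09 and 6.90 FPKM in *Znf143 f/f* and 7.25, 4.99 and 5.54 FPKM in *Znf143 -/-*. Library 1 of *Znf143 -/-* lay among the *Znf143 f/f* libraries, while the other two lay below them, and the log2 difference was -0.39 ± 0.17 (SE). *Pmvk* (chromosome 3, 89454541 to 89469013, plus strand), the phosphomevalonate kinase, had 33.8, 39.8 and 31.2 FPKM in *Znf143 f/f* and 31.1, 25.4 and 24.7 FPKM in *Znf143 -/-*. Library 1 of *Znf143 -/-* lay just below the lowest *Znf143 f/f* library. The log2 difference was -0.37 ± 0.13 (SE).

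*Mvd* (chromosome 8, 122433601 to 122443422, minus strand), the mevalonate diphosphate decarboxylase, had 7.46, 8.87 and 7.47 FPKM in *Znf143 f/f* and 5.06, 5.11 and 5.31 FPKM in *Znf143 -/-*. The *Znf143 -/-* libraries were close together, with a mean of 5.16 ± 0.130 against 7.93 ± 0.812 FPKM (SD, n = 3 each), and the log2 difference was -0.61 ± 0.10 (SE). *Idi1* (chromosome 13, 8885501 to 8892451, plus strand), the isopentenyl diphosphate isomerase, had 2.25, 2.84 and 2.84 FPKM in *Znf143 f/f* and 1.52, 2.55 and 2.67 FPKM in *Znf143 -/-*. Only library 1 of *Znf143 -/-* lay below all *Znf143 f/f* libraries, and the genotypes overlapped. The log2 difference of -0.26 ± 0.24 (SE) was about as large as its error and became -0.01 without that library.

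*Fdps* (chromosome 3, 89093588 to 89101959, minus strand), the farnesyl diphosphate synthase, had 4.27, 3.79 and 3.86 FPKM in *Znf143 f/f* and 2.73, 2.76 and 2.74 FPKM in *Znf143 -/-*. With rescaled FPKM, it was the enzyme with the most even level among the *Znf143 -/-* libraries, with a mean of 2.74 ± 0.0150 against 3.97 ± 0.259 FPKM (SD, n = 3 each) and a log2 difference of -0.52 ± 0.11 (SE). That SD is smaller than the counting error of the 507 to 671 fragments per *Znf143 -/-* library, so nothing is read from the evenness. As deposited, the *Znf143 -/-* libraries had 2.53, 2.79 and 3.30 FPKM. *Fdps* shares 1124 exon bases with *Gm43738* on the same strand, so that the assignment of fragments there is uncertain, and *Gm43738* itself held at most 12 fragments in any library.

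*Fdft1* (chromosome 14, 63145150 to 63179578, minus strand), the squalene synthase, had 13.2, 12.5 and 12.7 FPKM in *Znf143 f/f* and 7.04, 9.81 and 9.01 FPKM in *Znf143 -/-*. The genotypes were well apart, and the log2 difference was -0.58 ± 0.13 (SE). *Fdft1* shares 774 exon bases with *Ctsb* on the opposite strand, and the library kit does not mark the strand. *Ctsb*, a lysosomal protease gene, had 47.8 ± 0.729 FPKM in *Znf143 f/f* and 56.8 ± 7.18 FPKM in *Znf143 -/-* (SD, n = 3 each, limma, adjusted p = 0.236).

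*Sqle* (chromosome 15, 59315077 to 59331192, plus strand), the squalene epoxidase, had 18.6, 14.9 and 18.2 FPKM in *Znf143 f/f* and 8.61, 12.0 and 11.5 FPKM in *Znf143 -/-*. The genotypes did not overlap, and the log2 difference was -0.69 ± 0.16 (SE). *Lss* (chromosome 10, 76531588 to 76557138, plus strand), the lanosterol synthase, had 2.44, 1.88 and 2.35 FPKM in *Znf143 f/f* and 0.996, 2.26 and 1.87 FPKM in *Znf143 -/-*. Here library 1 alone was far below the *Znf143 f/f* libraries, library 2 lay among them and library 3 just below. The log2 difference of -0.42 ± 0.30 (SE) became -0.10 without library 1.

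**Figure D2:**
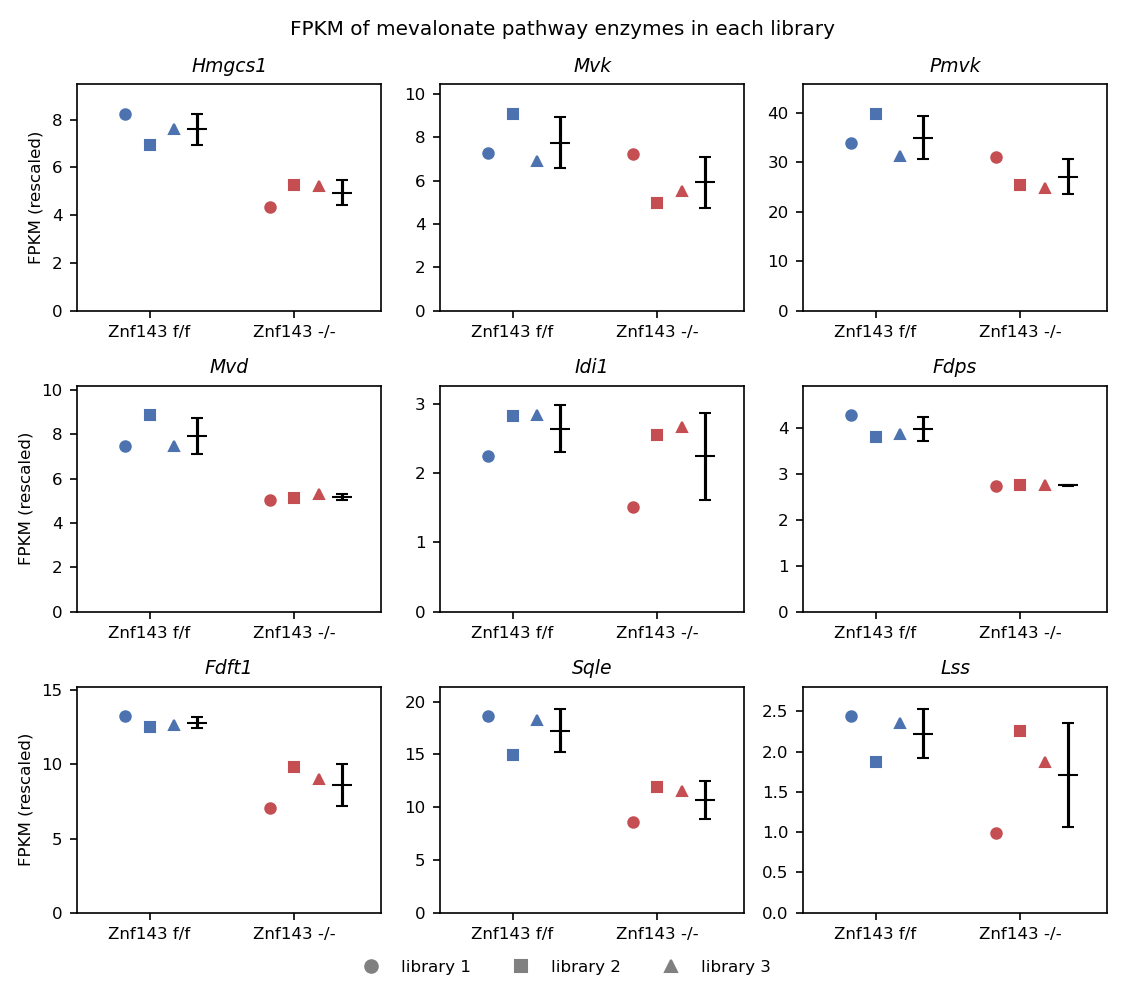
Rescaled FPKM (y axis, from 0) of the 9 mevalonate pathway enzymes in each *Znf143 f/f* (blue) and *Znf143 -/-* (red) library, with the marker shape giving the library number and black bars the mean ± SD of 3 libraries. The genotypes do not overlap for *Hmgcs1*, *Pmvk*, *Mvd*, *Fdps*, *Fdft1* and *Sqle*.

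The 9 enzymes did not vary together in every library. Library 1 was the lowest of the *Znf143 -/-* libraries for 7 of the 9 enzymes, as for 45.6% of all genes tested, and the highest for *Mvk* and *Pmvk*. In percent of the mean of *Znf143 f/f*, library 1 held 44.8% of *Lss*, 49.9% of *Sqle*, 55.0% of *Fdft1* and 56.9% of *Hmgcs1*, but 93.5% of *Mvk* and 89.0% of *Pmvk*. Libraries 2 and 3 held between 64.3% and 76.6% of *Hmgcs1*, *Mvk*, *Pmvk*, *Mvd*, *Fdps*, *Fdft1* and *Sqle*, and between 84.1% and 101.8% of *Idi1* and *Lss*. Within *Znf143 f/f*, library 2 was the highest for *Mvk*, *Pmvk* and *Mvd* and the lowest for *Hmgcs1*, *Fdps*, *Fdft1*, *Sqle* and *Lss*.

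**Figure D3:**
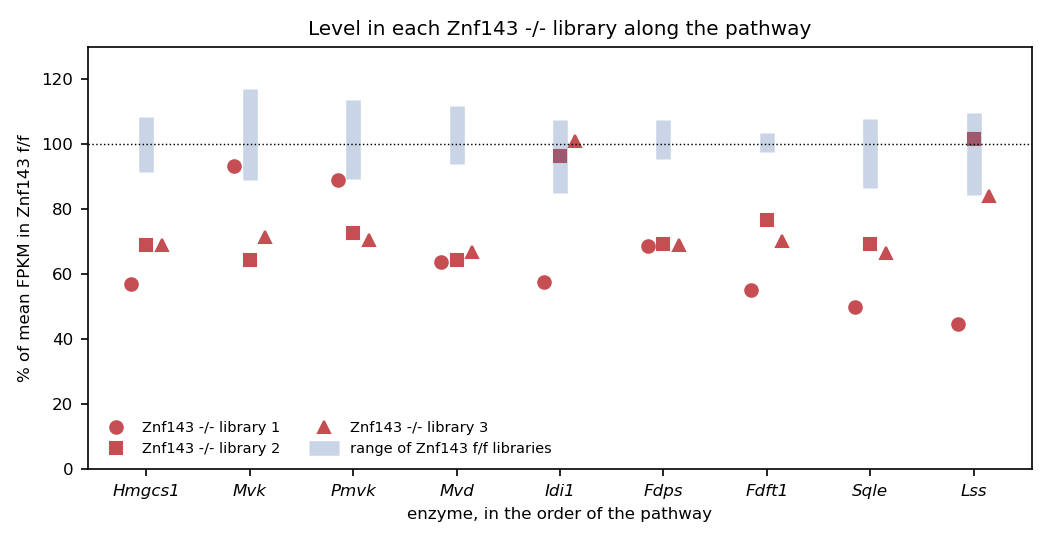
Level of each enzyme in the 3 *Znf143 -/-* libraries (red markers) in percent of its mean FPKM in *Znf143 f/f* (y axis), in the order of the pathway (x axis). The blue bars span the 3 *Znf143 f/f* libraries. Library 1 lies between 44.8% and 93.5%, lowest at *Lss* and highest at *Mvk*.

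The likeness of the 6-library profiles was described by the root mean square distance between log2 values centred on the mean of each gene. *Fdft1*, *Fdps* and *Hmgcs1* lay closest to the mean profile of the other 8 enzymes, at distances of 0.09, 0.10 and 0.10, and *Mvk* and *Lss* farthest, at 0.30 and 0.32. Of 12537 other genes with a mean of at least 1 FPKM, *Rgcc*, *Oaz2*, *Hspa4l*, *Crcp* and *Nsdhl* had the profiles most like the mean of the 9 enzymes, at distances between 0.03 and 0.04, beside a median of 0.33. *Rgcc* had 66.6, 63.9 and 61.0 FPKM in *Znf143 f/f* and 40.2, 48.6 and 46.0 FPKM in *Znf143 -/-*. *Nsdhl*, which encodes a sterol dehydrogenase after lanosterol, had 14.1, 13.1 and 13.0 FPKM in *Znf143 f/f* and 8.40, 9.85 and 9.44 FPKM in *Znf143 -/-*. Both were lowest in library 1 of *Znf143 -/-*, as the mean of the enzymes was.

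As to level, *Pmvk* was the most abundant of the enzymes in *Znf143 f/f* HSLAM cells at 34.9 ± 4.37 FPKM (SD, n = 3), followed by *Sqle* at 17.3 ± 2.02 and *Fdft1* at 12.8 ± 0.390 FPKM. *Mvd*, *Mvk* and *Hmgcs1* at 7.93, 7.76 and 7.60 FPKM came next, and their ranges over the libraries overlapped. *Fdps* at 3.97 FPKM stood apart from *Idi1* at 2.64 and *Lss* at 2.22 FPKM, which overlapped. The order depends on the length used, since the table divides by the union of all annotated exons, 10787 bases for *Lss* and 4208 for *Fdps*, where the longest coding transcripts have 4667 and 1382 bases. Per length of the longest coding transcript, *Fdps* moved to 12.1 FPKM, within the range of *Mvk* at 12.5 FPKM. *Lss* at 5.14 FPKM then stood above *Idi1* at 3.06 FPKM. *Pmvk*, *Sqle* and *Fdft1* kept the first places, but *Fdft1* at 14.3 to 15.1 FPKM overlapped *Mvk* at 11.1 to 14.6 FPKM.

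The direction of the differences was the same under each of 16 other ways of processing. For a filter of 1 FPKM or none, no variance trend and the replicate block this was fixed, since they leave the log2 difference unchanged. Under the others its size varied. The enzymes were chosen on this comparison, so nothing is read from the shared direction. With FPKM as deposited, the median over all genes tested was 0.11 in place of 0.01 and that over the 9 enzymes -0.41. *Znf143 -/-* libraries then lay below all *Znf143 f/f* libraries for 6 of the 9 enzymes, beside 8.43% of all genes, with *Mvk* in the place of *Sqle*. With the libraries that differ little averaged, the median over the 9 enzymes was -0.53, and without library 1 of *Znf143 -/-* it was -0.51.

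**Figure D4:**
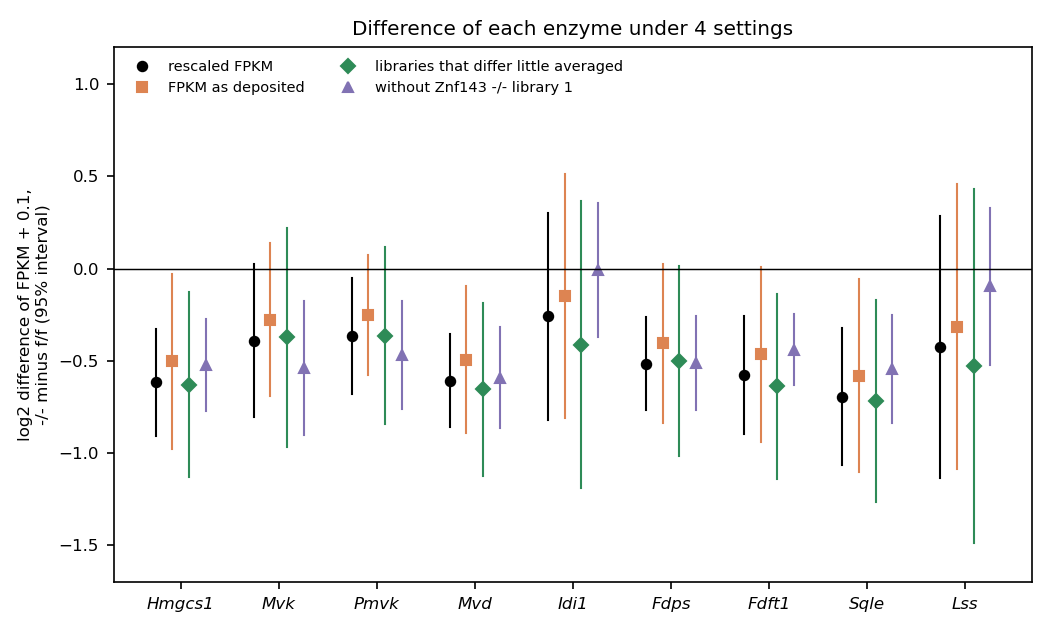
Log2 difference of FPKM + 0.1 between *Znf143 -/-* and *Znf143 f/f* (y axis) with its 95% interval for each enzyme, from rescaled FPKM (black), FPKM as deposited (orange), libraries that differ little averaged (green) and without library 1 of *Znf143 -/-* (purple). All points lie below 0, and *Idi1* and *Lss* lie near 0 without library 1, at -0.01 and -0.10.

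The genes next to the enzymes were examined where their start lay within 5 kb. *Mmab*, which encodes an enzyme of cobalamin metabolism, is transcribed away from *Mvk* with its start 209 bases from that of *Mvk*, on the other side of the promoter with 5 NF-Y boxes. It had 6.38, 5.72 and 6.39 FPKM in *Znf143 f/f* and 5.62, 5.92 and 5.74 FPKM in *Znf143 -/-*. The genotypes overlapped, with a log2 difference of -0.09 ± 0.09 (SE, limma, adjusted p = 0.593), and whether it differs from that of *Mvk* was not tested. *Idi2*, a paralog of *Idi1*, held at most 13 fragments in any library and was not tested.

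Genes of the steps before and after the 9 enzymes were compared by limma across all genes. These lists were chosen with earlier results of these data known. Their counts beside the shares of all genes are therefore a description, and no list was tested as a set. Of 5 genes of acetyl-CoA supply, *Acly*, *Acss2*, *Acat1*, *Acat2* and *Slc25a1*, 0 passed in either direction, 0 had an unadjusted p under 0.05 and 0 passed with voom. Over all 19293 genes tested, 1154 passed, 4661 had an unadjusted p under 0.05 and 1400 passed with voom. The median log2 difference of the 5 genes was -0.10. Of 10 genes of late sterol synthesis, which turn lanosterol into cholesterol, 4 fell, beside 2.99% of all genes, and the median was -0.49. *Msmo1*, the sterol methyl oxidase, fell from 14.5 ± 1.17 to 7.59 ± 1.42 FPKM (SD, n = 3 each, log2 difference -0.94 ± 0.15 (SE), limma, adjusted p = 0.0207, and 0.0121 to 0.185 over the alternatives). *Tm7sf2*, a sterol reductase, fell from 2.38 ± 0.225 to 1.39 ± 0.183 FPKM (SD, n = 3 each, log2 difference -0.74 ± 0.15 (SE), limma, adjusted p = 0.0426, and 0.0359 to 0.426 over the alternatives). *Nsdhl* passed as well. All *Znf143 -/-* libraries lay below all *Znf143 f/f* libraries for 6 of the 10 genes, beside 15.3% of all genes, *Cyp51* and *Hsd17b7* included, which did not pass. In all, 6 of the 10 did not pass, with *Lbr* at a log2 difference of 0.19 as the highest.

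Of 7 genes of SREBP control, 1 fell, beside 2.99% of all genes, and the median was -0.16. *Srebf1*, which encodes SREBP1, fell from 18.9 ± 1.52 to 14.0 ± 0.753 FPKM (SD, n = 3 each, log2 difference -0.43 ± 0.09 (SE), limma, adjusted p = 0.0490, and 0.0285 to 0.495 over the alternatives). *Srebf2* had 43.3, 37.2 and 40.1 FPKM in *Znf143 f/f* and 32.0, 34.2 and 33.5 FPKM in *Znf143 -/-*, and did not pass (limma, adjusted p = 0.116). The genotypes did not overlap for either gene with rescaled FPKM and overlapped for both with FPKM as deposited. *Insig1*, a sterol sensor whose gene is itself under SREBP control, had a log2 difference of -0.60 ± 0.15 (SE, limma, adjusted p = 0.0646).

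Of 11 genes of sterol uptake, storage and efflux, 5 fell, beside 2.99% of all genes, and the median was -0.54. That median is the value of *Mylip*, for which the genotypes overlapped and which did not pass. *Abca1*, a cholesterol exporter, fell from 1.08 ± 0.248 to 0.458 ± 0.0205 FPKM (SD, n = 3 each, log2 difference -1.06 ± 0.21 (SE), limma, adjusted p = 0.0372, and 0.0155 to 0.343 over the alternatives). *Nr1h3*, which encodes the oxysterol receptor LXR alpha and is known to drive efflux genes, fell from 1.24 ± 0.0927 to 0.623 ± 0.0714 FPKM (SD, n = 3 each, log2 difference -0.89 ± 0.17 (SE), limma, adjusted p = 0.0329, and 0.0196 to 0.403 over the alternatives). *Abcg1*, also an exporter, and *Stard4*, which carries sterol inside the cell, were among the 5 as well. *Lipa*, the lysosomal acid lipase, lay the other way, at 12.2 ± 0.697 FPKM in *Znf143 f/f* and 15.9 ± 0.608 FPKM in *Znf143 -/-* (SD, n = 3 each, limma, adjusted p = 0.0503), without overlap. *Npc1*, *Npc2*, *Soat1* and *Nr1h2* had log2 differences between -0.04 and 0.02. For *Npc1* the libraries went both ways, with 2.84, 2.78 and 2.83 FPKM in *Znf143 f/f* and 3.72, 2.43 and 2.43 FPKM in *Znf143 -/-*.

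Of 19 genes of isoprenoid use, which lead from farnesyl diphosphate to dolichol, ubiquinone and protein prenylation, none fell and 1 rose, beside 5.98% of all genes in either direction, and the median was 0.10. *Fntb*, the beta subunit of farnesyltransferase, rose from 5.71 ± 0.411 to 7.96 ± 0.470 FPKM (SD, n = 3 each, log2 difference 0.47 ± 0.10 (SE), limma, adjusted p = 0.0440, and 0.0296 to 0.489 over the alternatives). *Ggps1*, which extends farnesyl to geranylgeranyl diphosphate, had 6.28 ± 1.21 and 6.99 ± 0.102 FPKM (SD, n = 3 each, limma, adjusted p = 0.529). Of 7 genes of enzyme turnover, which take part in the degradation of enzymes of the pathway, *March6* was not found by symbol. Of the 6 tested, 0 passed by limma or with voom, and the median was -0.02. An unadjusted p under 0.05 by limma was found for 1 of the 6, beside 4661 of all 19293 genes tested. Library 1 of *Znf143 -/-* was the lowest *Znf143 -/-* library for 5 of the 5 genes of acetyl-CoA supply, 8 of the 10 of late sterol synthesis, 6 of the 7 of SREBP control, 3 of the 11 of uptake, storage and efflux, 14 of the 19 of isoprenoid use and 6 of the 6 of enzyme turnover, beside 45.6% of all genes.

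With the libraries that differ little averaged, 47 of 19293 genes tested passed in place of 1154, and none of the genes of these lists by limma, beside 0.150% of all genes that passed as lower. Of the lists, 5 of 10 genes of late sterol synthesis and 2 of 7 of SREBP control then had an unadjusted p under 0.05 by limma. So had 5 of 11 genes of uptake, storage and efflux and 1 of 19 of isoprenoid use, beside 1911 of all 19293 genes tested. With FPKM as deposited, 1 gene each of late sterol synthesis and of uptake, storage and efflux passed as lower, beside 1.58% of all genes.

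**Figure D5:**
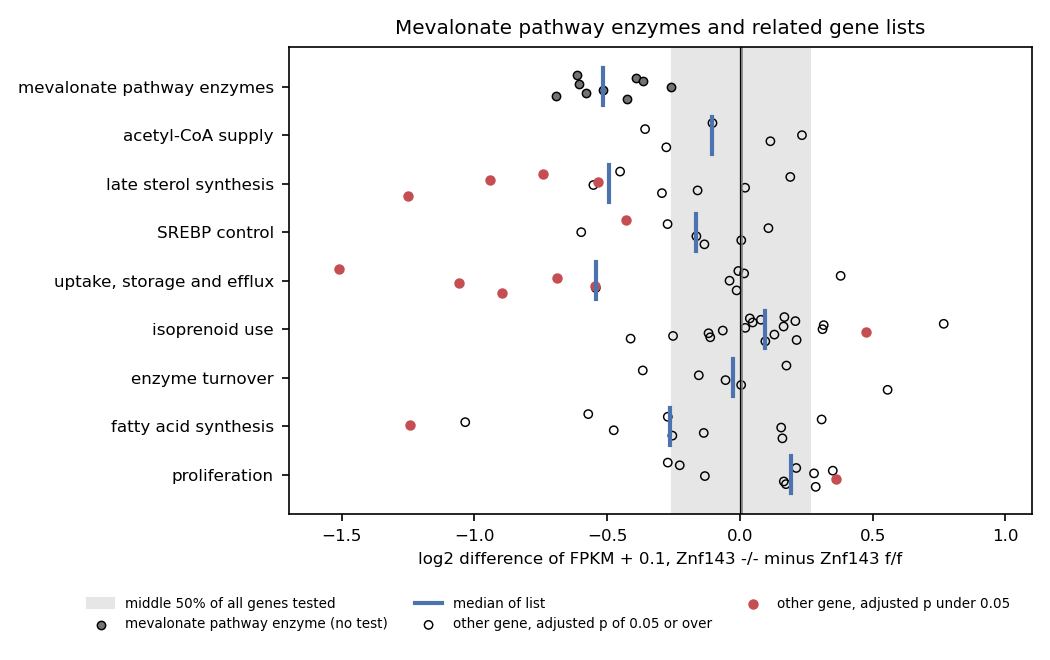
Log2 difference of FPKM + 0.1 between *Znf143 -/-* and *Znf143 f/f* (x axis) of the mevalonate pathway enzymes (grey points, no test) and of genes of related lists (open points, or red where the adjusted p by limma was under 0.05), with the median of each list as a blue line. The grey band holds the middle of all genes tested, from -0.25 to 0.26, and the medians of late sterol synthesis and of uptake, storage and efflux lie to its left, at -0.49 and -0.54.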

How the data were processed

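RNA-seq of 6 libraries was analysed. The other 19 of 25 samples of the series, from ChIP-seq and HiC, were not analysed here. Reads were trimmed (TrimGalore), aligned to GRCm38 (STAR), counted per gene (FeatureCounts) and compared between genotypes (DESeq2) by the authors, who deposited FPKM of each library for 23116 genes. Columns with the authors' own fold changes and p-values were not used.

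Fragments were recovered from FPKM times gene length, and 138677 of 138696 values were whole within 0.05 fragments, 99.986% of them. Size factors (medians of ratios, over 19046 genes) were applied to FPKM. Genes with a mean of at least 0.1 were tested on log2(FPKM + 0.1), which understates changes of low genes, with limma 3.58.1 in R 4.3.3 (lmFit, eBayes with trend, no block) and p-values adjusted after Benjamini and Hochberg, with a threshold of 0.05. As the unit is FPKM, limma took the place of a count model. The fit was tested on simulated data with independent libraries. No simulated pair differed as little as the pairs named above, so this test does not show whether the p-values hold with such pairs. Fragments are PCR products, so counting error is a lower limit. Coordinates and exons came from GENCODE release M21 on GRCm38, and promoters from RefSeq.

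The enzymes and gene lists were chosen with earlier results of these data known. Named are the enzymes, *Zfp143*, *Ctcf*, *Idi2* and neighbours with a start within 5 kb, the 5 genes of most similar profile, and of each list up to 3 genes that passed, of which single ones are not reported here. Other list genes named were chosen after their values were seen. The mice formed 3 littermate pairs, but no source used here ties libraries to pairs. The correlation of deviations of same-numbered libraries was -0.10, -0.09 and 0.04. Within each genotype, these deviations mostly set the remaining library against those that differ little. They therefore cannot decide whether libraries of the same number came from littermates. The alternatives were FPKM as deposited, the third *Znf143 -/-* library over its own total, a pseudocount of 1 or 0.01, a minimum mean FPKM of 1 or none, no variance trend, voom on recovered fragments, a replicate block and each of the 6 libraries left out. Averaging the libraries that differ little was added after the data were seen.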

Additional observations from a re-analysis of the deposited data

How the results depend on the processing

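At an adjusted p under 0.05 (limma), 1154 genes passed. The number was 191 with the replicate block and 47 with the libraries that differ little averaged, which leaves fewer libraries, and it stayed within 1.5 times under the other settings that keep all libraries. Leaving out 1 library gave 226 (without library 3 of *Znf143 -/-*) to 2290 (without library 2 of *Znf143 f/f*) genes. Of those that passed, 50.1% were higher in *Znf143 -/-* and 63.5% with FPKM as deposited. The median log2 difference of the 9 enzymes was -0.52, moved to -0.41 with FPKM as deposited and to -0.41 with a pseudocount of 1, and lay between -0.60 and -0.47 with 1 library left out. The replicate block, the other filters and the fit without a variance trend cannot change it, and left it at -0.52. Single enzymes kept their sign in each of 144 values under alternatives, which include those settings. Of the 144, 3 moved by more than 1 SD of the enzyme within genotypes, all in *Mvd* and *Fdps*, whose SD was small. *Idi1* at -0.01 and *Lss* at -0.10 without library 1 of *Znf143 -/-* did not count as moved, as their SD was large. Of 410 such values of other named genes, none that passed changed sign, 128 no longer passed and 2 newly passed. The cause was not tested. The lowest depth was that of *Idi1*, with 235 fragments in library 1 of *Znf143 -/-*.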

Other observations

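Genes of fatty acid synthesis, a pathway under SREBP1, were compared in the same way. Of 10 genes, 1 fell and none rose, beside 5.98% of all genes tested that passed in either direction, and the median log2 difference was -0.26. *Scd2*, a stearoyl-CoA desaturase, had 34.0, 25.1 and 35.3 FPKM in *Znf143 f/f* and 11.3, 14.4 and 13.9 FPKM in *Znf143 -/-*, so that it fell by 1.24 ± 0.16 (SE) on the log2 scale (limma, adjusted p = 0.00987, and 0.00510 to 0.146 over the alternatives). *Fasn*, the fatty acid synthase, had 7.38 ± 1.12 FPKM in *Znf143 f/f* and 4.90 ± 0.399 FPKM in *Znf143 -/-* (SD, n = 3 each, limma, adjusted p = 0.0645).

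Of 10 genes of proliferation, none fell and 1 rose, beside the same 5.98%, and the median log2 difference was 0.19. *Pcna*, the sliding clamp of DNA replication, rose from 107 ± 3.74 to 137 ± 4.49 FPKM (SD, n = 3 each, log2 difference 0.36 ± 0.08 (SE), limma, adjusted p = 0.0492, and 0.0295 to 0.613 over the alternatives). *Mki67*, which marks cycling cells, had 7.20 ± 0.791 and 6.02 ± 1.36 FPKM (SD, n = 3 each, limma, adjusted p = 0.394).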
